A study of Mus musculus with 4 samples.

Results

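The genes described here, 10 of the 32285 in each matrix, mark or serve lipid-handling macrophages. Trem2, Spp1, Gpnmb, Cd9, Fabp5, Apoe, Lpl, Pparg, Abca1 and Abcg1 were taken by their symbols, by a rule that used no value. They were, however, chosen with earlier results of these data known, so counts of members are descriptions only. Their unique molecular identifiers (UMIs, the tags that count captured RNA molecules) were followed through macrophage subtypes and the other lineages of lung and synovium. The TNF+ mice carried a human TNF transgene (the TNF-Tg line), and TNF- mice were littermates without it. All were female C57BL/6 mice at 4 months of age. Live cells were sorted after enzymatic digestion, with tissue pooled by genotype from 3 to 5 mice per lung library and 5 to 10 per synovium library, so each of the 4 groups was a pool with 1 library and no replicates. For this reason no test was possible, and each interval given is a 95% interval that covers counting error only.

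Macrophages take up lipoproteins, cell debris and surfactant, store the lipid in droplets and pass cholesterol on to acceptors outside the cell. TREM2 is a surface receptor for lipids and apolipoproteins. SPP1 (osteopontin) is a secreted phosphoprotein, GPNMB a lysosomal and surface glycoprotein, and CD9 a tetraspanin of the cell membrane. FABP5 carries fatty acids in the cytosol, APOE is the lipoprotein component that macrophages secrete, and LPL releases fatty acids from triglyceride. PPARG is the nuclear receptor on which alveolar macrophages depend for surfactant lipid handling, while ABCA1 and ABCG1 export cholesterol to lipid-poor apolipoprotein and to high-density lipoprotein, respectively. Several of these genes also serve other cells, such as LPL in adipose and muscle tissue and CD9 in platelets and myelin-forming glia.

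The members lie on 7 chromosomes of build GRCm38, all as protein-coding genes. Trem2 (chr17:48346401-48354147, plus strand) and Abcg1 (chr17:31057675-31117988, plus) share chromosome 17, while Gpnmb (chr6:49036546-49070929, plus), Cd9 (chr6:125460266-125494791, minus) and Pparg (chr6:115360951-115490399, plus) share chromosome 6. The others were Spp1 (chr5:104435118-104441050, plus), Fabp5 (chr3:10012548-10016607, plus), Apoe (chr7:19696109-19699188, minus), Lpl (chr8:68880491-68907448, plus) and Abca1 (chr4:53030787-53159895, minus). Genes on the opposite strand overlapped Cd9 (Gm28809 and Gm26728) and Pparg (Gm44079) and were also counted in the matrices. RefSeq promoters of the GRCm38.p6 build were matched for 7 of the 10 members, with 12 start sites; Fabp5, Lpl and Abcg1 had no entry. The 250 bases before the start are shown for Trem2 (chr17:48346151-48346400, plus strand), Spp1 (chr5:104434861-104435110, plus strand) and Abca1 (chr4:53159896-53160145, minus strand), because these genes were at least 2-fold higher in TNF+ than in TNF- synovial macrophages and monocytes and their windows held a motif searched. Capitals mark a motif searched on both strands, and each sequence runs 5′ to 3′ on the strand of its gene.
Trem2: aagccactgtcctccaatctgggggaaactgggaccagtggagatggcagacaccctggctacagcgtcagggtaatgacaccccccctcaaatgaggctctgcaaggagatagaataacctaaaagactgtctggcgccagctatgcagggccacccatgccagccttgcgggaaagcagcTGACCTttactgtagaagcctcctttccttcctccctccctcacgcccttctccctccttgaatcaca
Spp1: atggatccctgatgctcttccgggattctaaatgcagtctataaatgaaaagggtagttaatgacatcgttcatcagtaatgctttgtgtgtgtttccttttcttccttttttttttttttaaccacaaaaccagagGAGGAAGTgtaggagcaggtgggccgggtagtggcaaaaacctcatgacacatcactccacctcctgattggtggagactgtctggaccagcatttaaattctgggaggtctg
Abca1: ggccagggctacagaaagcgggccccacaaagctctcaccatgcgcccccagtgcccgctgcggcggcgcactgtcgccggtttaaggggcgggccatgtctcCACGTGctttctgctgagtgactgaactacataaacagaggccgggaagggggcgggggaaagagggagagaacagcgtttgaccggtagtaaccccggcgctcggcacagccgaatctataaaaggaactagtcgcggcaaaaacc
The capitals in Trem2 are the nuclear receptor motif AGGTCA read on the other strand (TGACCT), which was found in 14% of the 32851 promoter windows of this length. The capitals in Spp1 are the ETS-type motif GAGGAAGT (other strand ACTTCCTC, 2.44% of windows), and those in Abca1 the E-box CACGTG (the same on both strands, 6.02% of windows). Pparg was the other member with AGGTCA, at 2 of its start sites, and no other member window held any of these letters. The motifs do not overlap each other, and a match is a description of the sequence only.

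The filter of the study was applied, which keeps cells with 200 to 5000 genes and no more than 20% of UMIs from mitochondria. The lung libraries held 6998 TNF- and 9174 TNF+ cells and the synovium libraries 6200 TNF- and 3152 TNF+ cells. Kept UMIs ranged from 33047125 to 84398714 per library and the median per cell from 7137 to 12492. The mitochondrial limit was exceeded by 17.6% of the barcodes of the TNF+ synovium, against 1.41% to 3.78% in the other libraries. Cells were clustered without the genes of any list described here, so that the members' levels did not shape the clusters. Names such as alveolar macrophage or fibroblast stand for cells like that type, by marker genes.

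Macrophages and monocytes made up 3.58% of TNF- and 35.2% of TNF+ synovial cells, and 9% and 47.9% of lung cells. The synovium held 3 such clusters. A C1q tissue macrophage cluster carried 13 of 19 subtype markers (75 TNF- and 183 TNF+ cells), and a nonclassical monocyte cluster 13 of 14 (138 and 208 cells). A cluster led by Spp1, Cxcl3, Clec4n and Cxcl2 held 9 TNF- and 720 TNF+ cells and stayed without a subtype name, since it carried 6 of 12 classical monocyte, 4 of 19 C1q and 4 of 14 osteoclast markers. It is called the Cxcl3 macrophage cluster here. With nearly all its cells from the TNF+ library, it cannot be told apart from a feature of that library.

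The lung held 5 clusters of this lineage. They were C1q tissue macrophages (14 of 19 markers; 75 TNF- and 362 TNF+ cells), alveolar macrophages (14 of 15; 102 and 68), classical monocytes (10 of 12; 120 and 441), nonclassical monocytes (14 of 14; 307 and 2721) and a shallow alveolar cluster (10 of 15; 26 and 804). The shallow cluster had a median of 746.5 UMIs per cell, against 8403 for the TNF+ lung, and also carried 8 C1q macrophage markers. Its values are therefore given apart.

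In the TNF- synovium most members had the larger part of their UMIs outside macrophages and monocytes. Trem2 had 88.8% of its 232 UMIs in macrophages and monocytes (84.0 to 92.5%), and it was the only member with more than 50% there. When the UMIs found per lymphocyte were subtracted for every cell, 5 members were counted over 50%. For Pparg, Fabp5 and Abcg1, however, the amount subtracted was larger than all UMIs of the library, so their shares have no meaning. Fibroblasts, 54.0% of the cells, held 93.5% of the Gpnmb UMIs, 85.5% of the Lpl, 77.6% of the Cd9, 75.9% of the Abca1 and 62.3% of the Apoe UMIs. Dendritic cells held the largest share of Abcg1 (41.4%) and Spp1 (35.7%), and endothelium that of Fabp5 (40.3%). Pparg was split between macrophages and monocytes (24.6%), dendritic cells (22.4%) and fibroblasts (20.2%). The Lpl share of macrophages and monocytes was 1.19% and the Gpnmb share 0.173% (0.0473 to 0.443%).

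In the TNF+ synovium 7 of the 10 members had more than 50% of their UMIs in macrophages and monocytes, which were 1111 of its 3152 cells. How many of all genes passed 50% was not counted, so the 7 are not read as a trait of the set. The Trem2 share was 98.6% of 5151 UMIs (98.2 to 98.9%), that of Spp1 86.6% of 23515, Abca1 79.7% of 8878, Apoe 78.5% of 37189, Abcg1 72.3% of 1124, Fabp5 61.1% of 7625 and Gpnmb 53.2% of 1133 (50.3 to 56.2%). The Cxcl3 macrophage cluster alone held 81.3% of Spp1 and 69.5% of Trem2 UMIs, with 22.8% of the cells. Cd9, Pparg and Lpl were below 50%. For Lpl the leading lineage was endothelium (47.7%), and for Pparg nonclassical monocytes (34.4%), followed by endothelium (24.0%) and epithelium (23.4%).

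In the lung more members than in the synovium had over 50% of their UMIs in macrophages and monocytes, 6 in TNF- and 10 in TNF+ cells. Macrophages and monocytes were 630 of the 6998 TNF- and 4396 of the 9174 TNF+ lung cells. How many of all genes passed 50% was not counted here either, so these counts are not read as a trait of the set. The TNF- members were Trem2 (93.5%), Pparg (85.5%), Apoe (62.4%), Spp1 (60.5%), Lpl (55%) and Abcg1 (52.9%). Fabp5 lay mainly in epithelium (48.8%), Cd9 in endothelium (35.3%) and Abca1 in B or plasma cells (30.7%) there, while Gpnmb was shared by fibroblasts (30.6%) and alveolar macrophages (30.2%) with overlapping intervals. In the TNF+ lung the shares ran from 55.6% for Abca1 to 92.9% for Pparg. Nonclassical monocytes held 82.6% of the Pparg UMIs, and C1q macrophages 62.4% of the Gpnmb, 60.5% of the Apoe and 43.3% of the Trem2 UMIs. Without the shallow alveolar cluster 9 members were over 50% in the TNF+ lung.

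**Figure D1:**
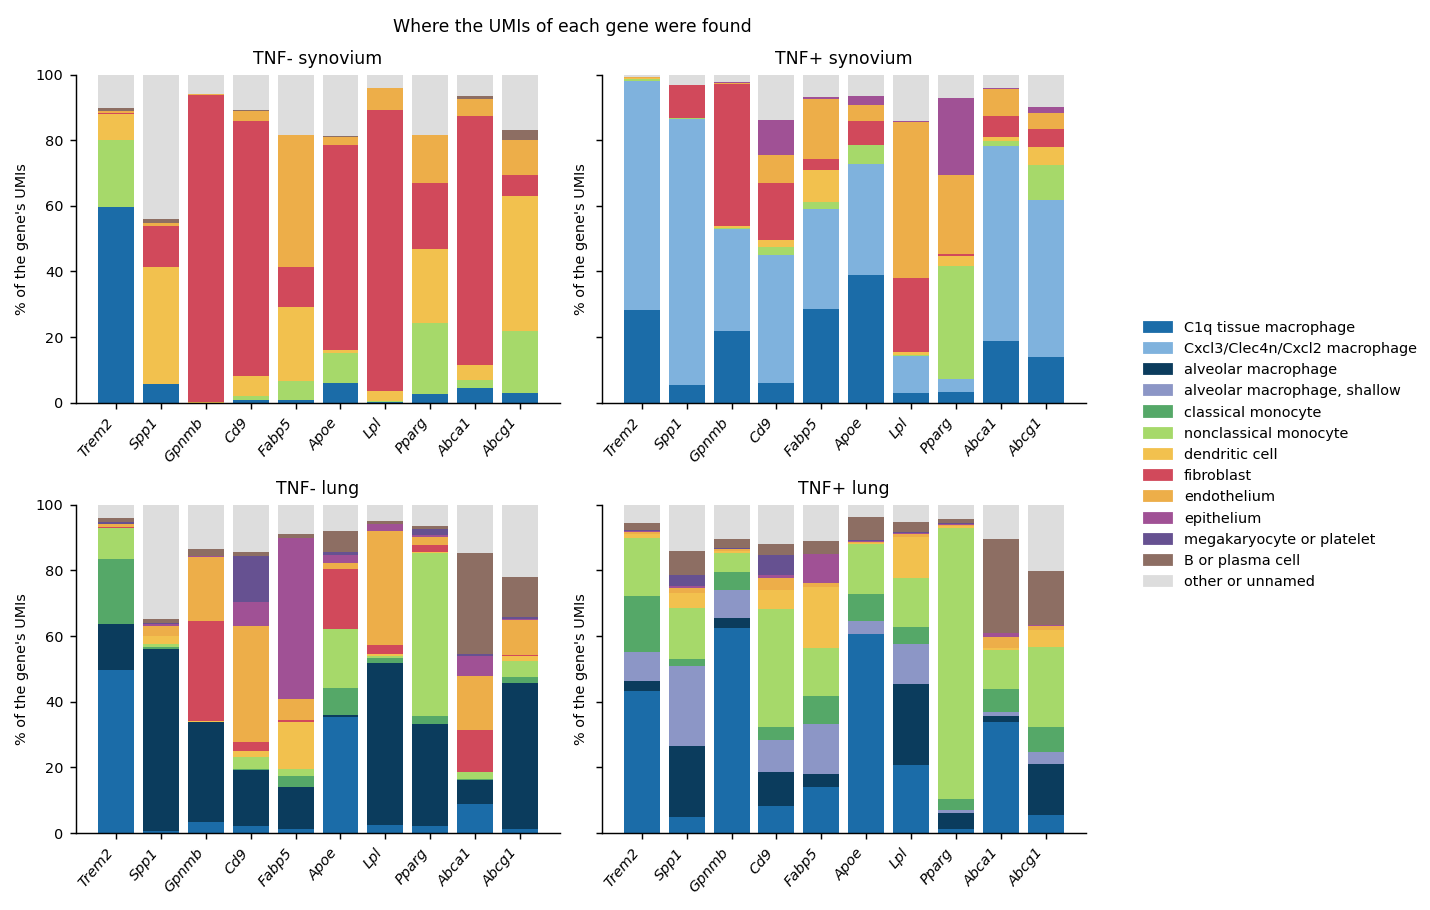
Stacked bars give, for each of the 10 genes (x axis) and each of the 4 libraries (panels), the percent of the gene's UMIs found in each cell type (y axis, 0 to 100%). Fibroblasts (red) hold most Gpnmb, Lpl, Cd9, Abca1 and Apoe UMIs in the TNF- synovium, whereas macrophage and monocyte colours (blues and greens) fill more than 50% of 7 bars in the TNF+ synovium and of all 10 in the TNF+ lung.

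RNA released from broken cells adds UMIs to every droplet, and T, NK and innate lymphoid cells served as the gauge of it. They had a median of 9065 and 9233.5 UMIs per cell in the TNF- and TNF+ lung, and 11088 and 6190 in the synovium. In the lung, Apoe stood at 0.317 UMIs per lymphocyte in TNF- and 2.60 in TNF+ cells. Spp1, Trem2, Gpnmb and Fabp5 showed the same direction, for instance 0.0428 against 0.173 for Spp1 and 0.00685 against 0.0516 for Trem2. In all, 7 of the 10 members were at least 2-fold higher in TNF+ than in TNF- lung lymphocytes, where 6.20% of the 14344 genes tested were, and none was 2-fold lower, where 7.68% were. TNF+ alveolar macrophages had 2.25 Apoe UMIs per cell, no more than lymphocytes. Without the upper limit on genes per cell, 632 TNF+ alveolar macrophages had 3477 Apoe UMIs and 1696 TNF+ lung lymphocytes had 5984. Per cell, Apoe was then higher in the alveolar macrophages than in the lymphocytes. As a part of all UMIs of the cells, however, it was lower in the alveolar macrophages. How much of their Apoe is background was not tested. In the synovium Apoe per lymphocyte was higher in the TNF- library (0.931) than in the TNF+ (0.0884).

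Levels are given as CPM, the UMIs of a gene per 1000000 UMIs of the cell type in that library, and the same gene is compared across cell types. CPM does not correct for gene length, so different genes are not ranked against each other. The plot of levels by cell type shows 9 of the members as 3 broad patterns: genes centred on C1q macrophages (Trem2, Apoe, Abca1), genes centred on alveolar macrophages (Lpl, Abcg1, Spp1 in the lung) and genes as high or higher in another lineage (Cd9, Fabp5, Gpnmb in the TNF- synovium). Pparg, led by nonclassical monocytes and alveolar macrophages, stood apart. These are descriptions of the order of levels and were not tested. Orders are over cell types with at least 50 cells in the library.

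**Figure D2:**
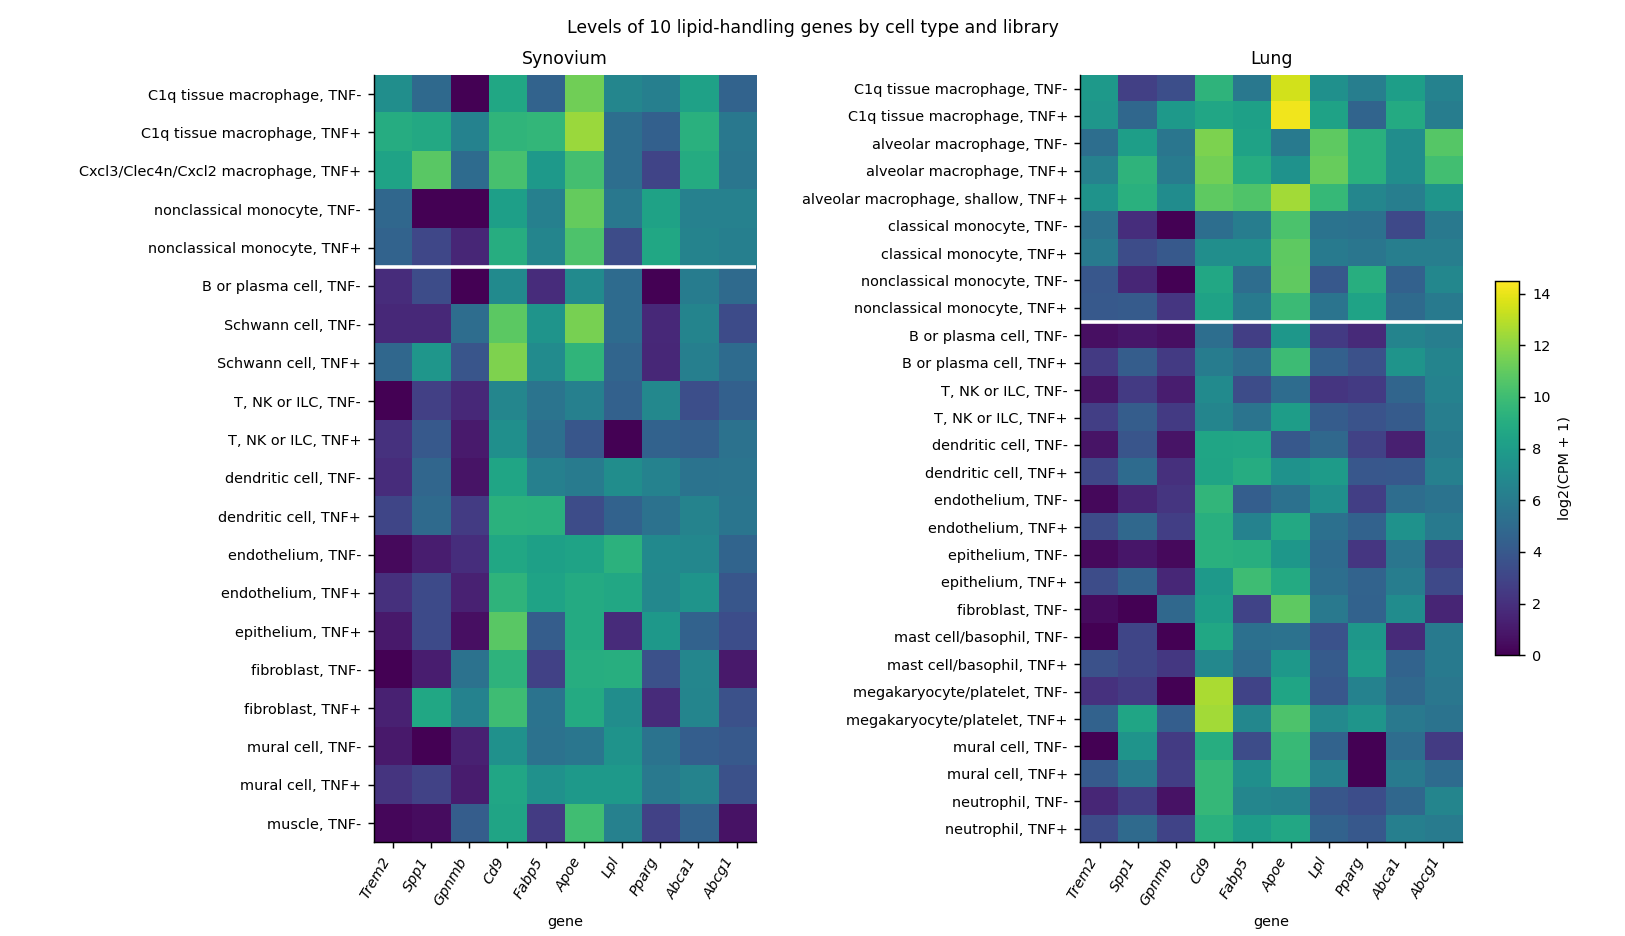
Each cell of the maps is log2(CPM + 1) of a gene (x axis) in a cell type of the TNF- or TNF+ library (y axis) for synovium (left) and lung (right), with macrophages and monocytes above the white line and cell types with at least 50 cells shown. Apoe is brightest in lung C1q macrophages, Cd9 in lung megakaryocytes or platelets, and Spp1 in the synovium in the TNF+ Cxcl3 macrophage cluster.

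Trem2, the lipid receptor, had the highest share of UMIs in macrophages and monocytes of all members in 3 of the 4 libraries. In the TNF+ lung its 89.8% was below the 92.9% of Pparg. In the synovium it stood at 141 CPM (118 to 166) in TNF- C1q macrophages and 512 CPM (487 to 539) in TNF+ C1q macrophages, and at 333 CPM (322 to 344) in the TNF+ Cxcl3 cluster. The 3 intervals do not overlap. Lung C1q macrophages had 225 CPM (195 to 259) in TNF- and 197 CPM (185 to 210) in TNF+ cells, with overlapping intervals. Alveolar macrophages had 37.1 and 82.6 CPM, classical monocytes 44.0 and 58.5 CPM, and nonclassical monocytes of lung 14.1 and 15.7 CPM.

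Trem2 was also spread over most cells of its clusters. In synovial C1q macrophages 57.3% of TNF- and 90.2% of TNF+ cells had a Trem2 UMI. After each cell was thinned to 1000 UMIs these shares were 5.33% (1.47 to 13.1%) and 41.3% (34.0 to 48.9%), against 0% and 0.699% of lymphocytes. In the Cxcl3 cluster 22.9% of thinned cells had one (39 of 720 cells were left out as too shallow), and in lung C1q macrophages 17.8% and 15.8%. The order of the shares is that of the CPM.

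Spp1, the gene for osteopontin, was low in TNF- synovial macrophages and, among cell types with at least 50 cells, highest in the Cxcl3 cluster of the TNF+ synovium. The 23 neutrophils of that library, a type below this size, had 3926 CPM. It stood at 30.6 CPM (20.7 to 43.7) in TNF- C1q macrophages, beside 26.4 CPM in TNF- dendritic cells with overlapping intervals. In the TNF+ library it was 1779 CPM (1754 to 1804) in the Cxcl3 cluster, 437 CPM (413 to 462) in C1q macrophages, 399 CPM (383 to 416) in fibroblasts and 198 CPM in Schwann cells. The C1q macrophage and fibroblast intervals overlap. Within fibroblasts it reached 602 CPM in the 233 TNF+ cells of a cluster led by Ibsp and Mmp13, genes of bone matrix and collagen breakdown.

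The Spp1 level of the Cxcl3 cluster came from few cells. Of its 720 TNF+ cells, 374 (51.9%) had a UMI, the median was 1, the highest cell had 976, and the 10% of cells with most Spp1 held 76.8% of the UMIs. The same share was 34.1% for Trem2, which had a UMI in 75.7% of these cells. In TNF+ C1q macrophages the top 10% of cells held 88% of the Spp1 and 86.6% of the Gpnmb UMIs. In the lung, Spp1 was led by alveolar macrophages, with 277 CPM (251 to 304) in TNF- and 677 CPM (625 to 732) in TNF+ cells. Mural cells followed in the TNF- lung at 179 CPM, and megakaryocytes or platelets in the TNF+ lung at 361 CPM.

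Gpnmb was found mainly in fibroblasts of the TNF- synovium and in both fibroblasts and macrophages of the TNF+ synovium. TNF- fibroblasts had 43.1 CPM (41.3 to 45.0), and TNF- C1q macrophages had no Gpnmb UMI in 75 cells, where 3 UMIs would be a level of 3.06 CPM. In the TNF+ library C1q macrophages had 86.6 CPM (76.1 to 98.1) and fibroblasts 83.9 CPM (76.6 to 91.7), which overlap, and the Cxcl3 cluster had 32.9 CPM. The fibroblast cluster with Chad, Kera and Fmod, genes of tendon and cartilage matrix, went from 129 CPM in the TNF- to 306 CPM in the TNF+ library. In lung C1q macrophages Gpnmb stood at 10.1 CPM (4.64 to 19.3) and 222 CPM (209 to 235), from 9 and 1179 UMIs. A Gpnmb UMI was found in 37.0% of the TNF+ cells of that cluster, and the top 10% of cells held 74.1% of the UMIs.

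Cd9 was higher in other lineages than in most macrophages. Schwann cells led the synovium with 1825 CPM (1702 to 1954) in TNF- and 3300 CPM (3188 to 3415) in TNF+ cells, and megakaryocytes or platelets led the lung with 6467 and 5638 CPM. Among macrophages, lung alveolar cells were highest at 3244 CPM (3154 to 3336) and 2684 CPM (2580 to 2791). The TNF+ Cxcl3 cluster had 1234 CPM, more than TNF+ C1q macrophages at 714 CPM. Nearly all alveolar macrophages had a Cd9 UMI even after thinning (88.1% and 76.5%), against 11.6% and 10.2% of lung lymphocytes.

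**Figure D3:**
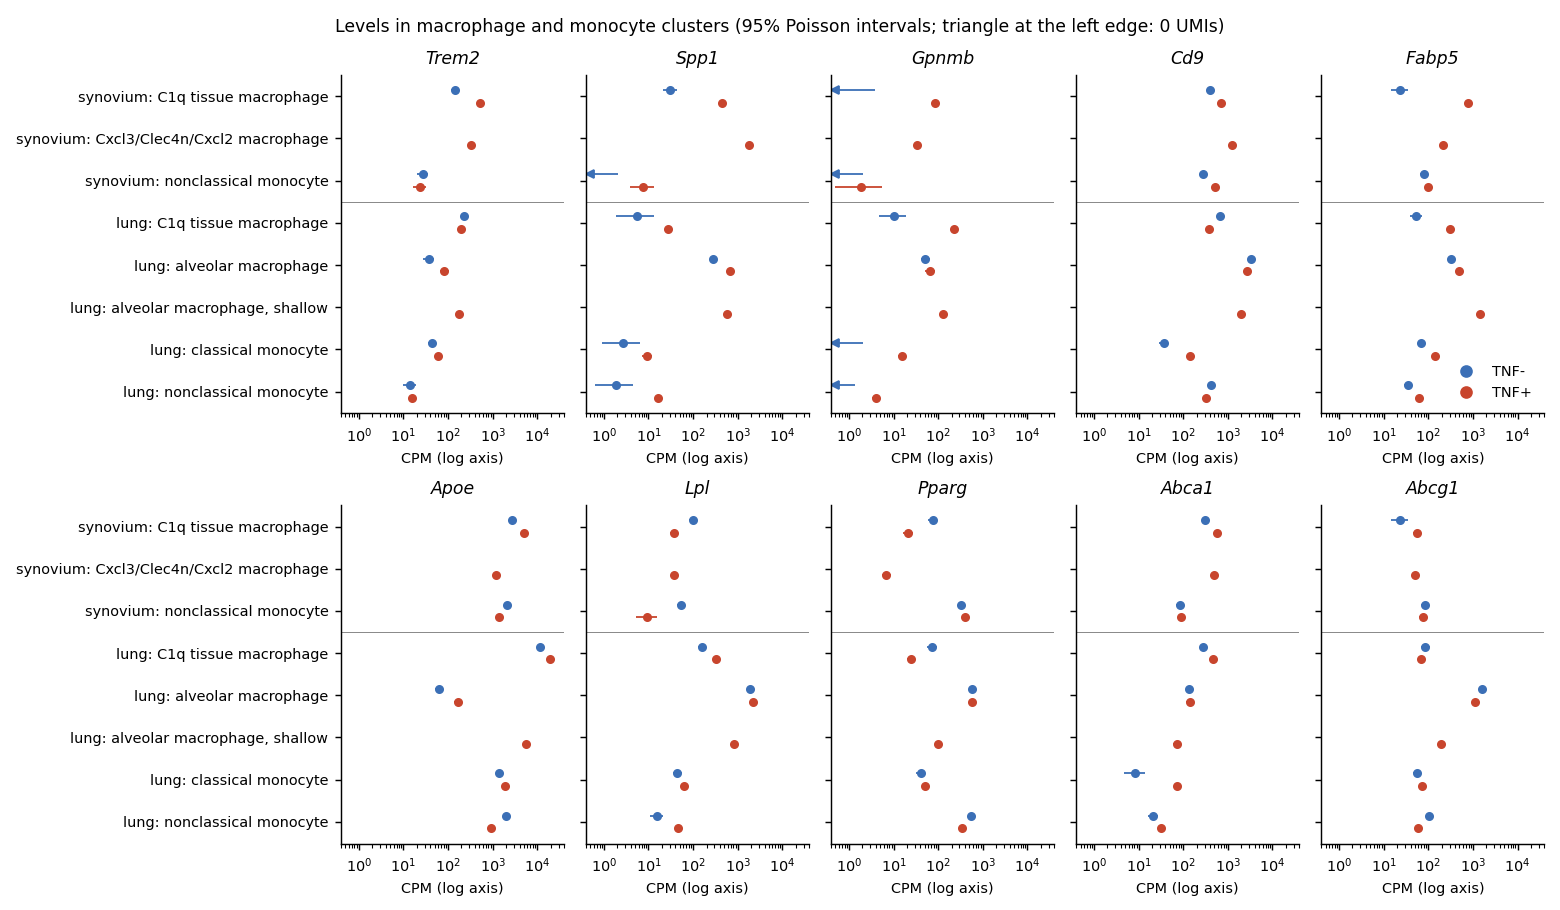
Points give the CPM (log axis) of each gene in each macrophage or monocyte cluster of the TNF- (blue) and TNF+ (red) libraries, with bars for exact Poisson 95% intervals and a triangle where no UMI was found. In synovial C1q macrophages the TNF+ point lies to the right for Trem2 (141 and 512 CPM), Spp1 (30.6 and 437 CPM), Gpnmb (0 UMIs and 86.6 CPM) and Fabp5 (23.5 and 761 CPM), and to the left for Lpl and Pparg.

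Fabp5, the fatty acid carrier, had the widest TNF+ to TNF- difference of any member tested in synovial C1q macrophages with UMIs in both libraries, 23.5 CPM (14.9 to 35.3) against 761 CPM (729 to 794). The share of thinned cells with a UMI was 2.67% and 34.6%, with 1.47% and 4.90% of lymphocytes. Synovial dendritic cells had 79.9 and 591 CPM, while endothelium had 298 CPM (279 to 317) and 343 CPM (325 to 361). In lung C1q macrophages Fabp5 was at 54.1 and 305 CPM. Epithelium led the TNF- lung at 535 CPM and had 1032 CPM in the TNF+, where the shallow alveolar cluster was higher at 1446 CPM.

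Apoe was highest in C1q macrophages in every library except the TNF- synovium. Lung C1q macrophages had 11770 CPM in TNF- and 19000 CPM in TNF+ cells, with a median of 73 and 200 UMIs per cell. In the synovium C1q macrophages had 2667 CPM (2565 to 2771) and 5070 CPM (4987 to 5153). Schwann cells were above them in the TNF- synovium at 2967 CPM (2810 to 3130) and had 720 CPM in the TNF+. Nonclassical monocytes had less Apoe in TNF+ libraries, with 2143 and 1386 CPM in synovium and 2007 and 940 CPM in lung. In the lung this direction is opposite to that of the Apoe found in lymphocytes.

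Lpl, the triglyceride lipase, was an alveolar macrophage gene in the lung and a stromal gene in the synovium. Lung alveolar macrophages had 1889 CPM (1820 to 1960) in TNF- and 2208 CPM (2113 to 2305) in TNF+ cells. In the TNF- synovium endothelium had 637 CPM and fibroblasts 546 CPM, and in the TNF+ 411 and 135 CPM. In fibroblasts with Grm8 and Cxcl14, 1291 cells of the TNF- library had 810 CPM and 50 cells of the TNF+ library 510 CPM, and in those with Gdf10 the level was 616 and 361 CPM. Endothelium with Timp4, Aqp1 and Gpihbp1, the last of which encodes the anchor of LPL on capillaries, had 762 and 581 CPM. Synovial C1q macrophages had 99.1 CPM (80.3 to 121) and 37.5 CPM (30.7 to 45.3).

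Pparg, the nuclear receptor, was highest in nonclassical monocytes of synovium and in nonclassical monocytes and alveolar macrophages of lung. Nonclassical monocytes had 329 CPM (303 to 357) in TNF- and 400 CPM (370 to 433) in TNF+ synovium, and 538 CPM (511 to 567) and 338 CPM (331 to 345) in the lung. Alveolar macrophages had 584 CPM (546 to 624) and 582 CPM (534 to 634). The thinned shares were 38.2% and 26.9% for lung nonclassical monocytes and 32.7% and 42.6% for alveolar macrophages, against 0.257% and 1.05% of lung lymphocytes. C1q macrophages had less in both tissues: 75.6 and 21.0 CPM in synovium and 72.1 and 24.2 CPM in lung. The TNF+ Cxcl3 cluster had 6.89 CPM (5.41 to 8.65).

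The cholesterol exporters divided by subtype. Abca1 was led by C1q macrophages in all 4 libraries, with 312 CPM (278 to 349) in TNF- and 582 CPM (555 to 611) in TNF+ synovium, and 282 CPM (248 to 319) and 464 CPM (445 to 482) in the lung. The TNF+ Cxcl3 cluster followed at 491 CPM (478 to 505). Lung B or plasma cells also held Abca1 at 92.9 and 177 CPM. Abcg1 was led by lung alveolar macrophages at 1640 CPM (1576 to 1705) and 1116 CPM (1049 to 1185), with a UMI in 73.3% and 63.2% of thinned cells, against 6.68% and 7.33% of lymphocytes. In the synovium nonclassical monocytes had most Abcg1, 83.1 CPM (70.2 to 97.7) and 75.1 CPM (62.2 to 89.9), and the TNF+ C1q and Cxcl3 clusters were near 50 CPM with overlapping intervals.

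TNF+ and TNF- libraries were then compared within each tissue. A member was called where its CPM differed at least 2-fold, with at least 20 UMIs over both libraries. This is a rule of size and not a test. Over the summed UMIs of the whole synovium 6 of the 10 members were called higher in TNF+ (Trem2, Spp1, Fabp5, Apoe, Abca1, Abcg1), where 11.8% of the 19255 genes tested were, and Lpl was called lower, where 21.9% of genes were. The log2 ratios of TNF+ over TNF- were 6.72 for Spp1 (6.59 to 6.84), 5.68 for Trem2 (5.49 to 5.87), 2.84 for Fabp5 and -1.98 for Lpl (-2.04 to -1.93). Apoe was at 1.02 (0.995 to 1.04), so its interval spans the 2-fold limit, and without the 5000-gene limit it was at 0.77. In sums over a whole tissue, a change in the number of cells of a type and a change in RNA per cell cannot be told apart.

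In the whole lung 5 members were called higher in TNF+ (Trem2, Spp1, Gpnmb, Apoe, Pparg), where 5.79% of the 19510 genes tested were, and none lower, where 25.5% of genes were. Gpnmb had the largest ratio, 2.22 on the log2 scale (2.04 to 2.42), followed by Trem2 at 1.94 (1.79 to 2.10) and Apoe at 1.86. Cd9 was at -0.89 and Abcg1 at -0.39. Without the 5000-gene limit Pparg fell within 2-fold (1.31 with the limit and 0.61 without), Fabp5 (1.60) and Abca1 (1.02) were past it, and Cd9 was at -0.047. The median log2 ratio over all genes tested was -0.17 in the synovium and -0.32 in the lung. Relative to that median, Cd9 stood at 1.08 in the synovium and Fabp5 at 1.23 and Abca1 at 1.02 in the lung, which would add them to those past 2-fold.

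Within synovial macrophages and monocytes, 8 of the 10 members differed at least 2-fold between the libraries. Of the 10 members 6 were called higher in TNF+ (Trem2, Spp1, Gpnmb, Cd9, Fabp5, Abca1), where 9.21% of 11815 genes were, and 2 lower (Lpl and Pparg), where 19.5% were. Spp1 had a log2 ratio of 5.84 (5.50 to 6.21), Gpnmb 4.83 (3.46 to 6.71, from 4 TNF- UMIs), Trem2 2.22, Fabp5 2.05, Cd9 1.73 and Abca1 1.5. Lpl was at -1.98 and Pparg at -2.19. Apoe (-0.22, and 0.0084 without the 5000-gene limit) and Abcg1 (-0.25) were within 2-fold. The subtypes behind these sums differed, since the Cxcl3 cluster gave 720 of the 1111 TNF+ cells and 9 of the 222 TNF- cells.

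The synovial C1q macrophages allow the comparison within a subtype. Of the members 5 were called higher (Trem2, Spp1, Gpnmb, Fabp5, Abcg1), where 10.5% of 8788 genes were, and Lpl and Pparg lower, where 17.9% were. Fabp5 had a log2 ratio of 5.02 (4.43 to 5.68), Spp1 3.84 (3.31 to 4.41), Trem2 1.86 (1.61 to 2.13) and Abcg1 1.22 (0.58 to 1.92). Gpnmb was at least 28.3-fold higher, with 247 UMIs against none, computed against a floor of 3 UMIs over the group. Apoe (0.93, and 1.20 without the 5000-gene limit), Abca1 (0.90) and Cd9 (0.85) were higher by less than 2-fold with the limit, and Pparg was at -1.84 (-2.36 to -1.33). When the UMIs found per lymphocyte were subtracted, Pparg in this subtype turned to 1.90, since TNF- synovial lymphocytes, which include innate lymphoid cells, had 1.31 Pparg UMIs per cell.

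Synovial nonclassical monocytes differed less between genotypes. Of the 8 members with enough UMIs none was called higher, where 6.31% of 8119 genes were, and Lpl was called lower (-2.52, -3.41 to -1.73), where 10.7% were. Trem2 (-0.22), Fabp5 (0.31), Abca1 (0.11) and Abcg1 (-0.15) had intervals that include 0. Cd9 was at 0.87, and at 1.02 without the 5000-gene limit. Spp1 had no UMI in 138 TNF- cells and 12 in 208 TNF+ cells.

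**Figure D4:**
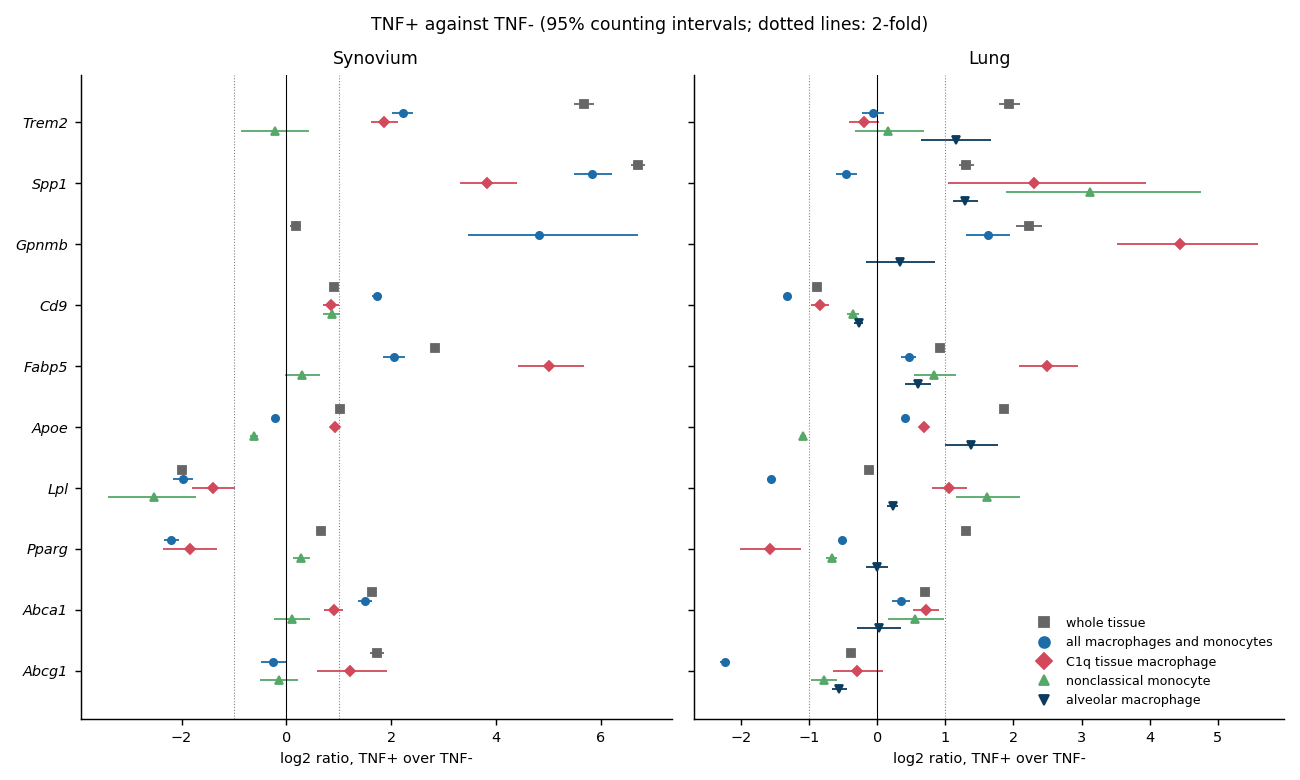
Log2 ratios of TNF+ over TNF- CPM (x axis) for each gene (y axis) in synovium (left) and lung (right), with symbols for the whole tissue and for macrophage groups, bars for 95% counting intervals and dotted lines at 2-fold. Synovial Spp1 and Fabp5 lie right of the 2-fold line in C1q macrophages (3.84 and 5.02), lung Cd9 lies left of 0 in every group drawn, and Gpnmb is not drawn where the TNF- cells had no UMI.

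Outside the macrophages, Spp1 in synovial fibroblasts had the largest log2 ratio of any member in any cell type tested with UMIs in both libraries. It stood at 1.28 CPM in 3346 TNF- fibroblasts (64 UMIs) and at 399 CPM in 462 TNF+ fibroblasts (2327 UMIs), a log2 ratio of 8.29 (7.93 to 8.67). Lymphocytes of the TNF+ synovium had 15.6 CPM. Of the 9 members with enough UMIs in fibroblasts 3 were called higher (Spp1, Fabp5, Abcg1), where 8.51% of 16456 genes were, and 2 lower (Lpl at -2.02 and Pparg at -2.18), where 23.2% were. The clusters behind these sums differed: the Ibsp and Mmp13 cluster, with Lpl at 79.2 CPM, held 233 of the 462 TNF+ and 3 of the 3346 TNF- fibroblasts. Within the Grm8 and Gdf10 clusters the Lpl levels given above differed less than 2-fold. TNF+ fibroblasts had Fabp5 at 45.1 CPM, beside 38.5 CPM in TNF+ lymphocytes, and Abcg1 at 11 CPM, below the 43.7 CPM of those lymphocytes. Gpnmb was at 0.96 (0.82 to 1.10), so its interval spans the 2-fold limit. The 5000-gene limit removed 23.8% of TNF+ fibroblasts, and without it Fabp5 stood at 115.5 CPM (log2 ratio 4.22), Gpnmb at 50.5 CPM (0.29), Spp1 at 754 CPM (8.59) and Lpl at 74.3 CPM (-2.85). In synovial endothelium Spp1 was the member called higher, where 7.04% of 11828 genes were, at 1.2 and 8.61 CPM, less than the TNF+ lymphocytes. No member was called lower there, where 10.1% were, and Lpl was at -0.63 (-0.73 to -0.54). Without the 5000-gene limit, endothelial Spp1 stood at 1.08 and 35.3 CPM (5.04), above the 17.2 CPM of TNF+ lymphocytes. Trem2 was then also past 2-fold in endothelium (4.54, from 1 TNF- and 36 TNF+ UMIs).

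In the lung, all macrophages and monocytes together gave a different split. Only Gpnmb was called higher in TNF+ (1.62, 1.31 to 1.95), where 4.87% of 14748 genes were, and Abcg1 (-2.23), Lpl (-1.56) and Cd9 (-1.33) were called lower, where 14.2% were. Trem2 (-0.06) and Spp1 (-0.45) were within 2-fold. Alveolar macrophages were 102 of 630 TNF- and 68 of 4396 TNF+ cells of this lineage. Among its named subtypes the 3 lower members were highest there, and so were Spp1 and Pparg (-0.52), which were within 2-fold. This count depends on the filter on cells, as described next.

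Within lung C1q macrophages 4 members were called higher in TNF+, where 7.45% of 10855 genes were: Gpnmb (4.45, 3.52 to 5.58), Fabp5 (2.5, 2.08 to 2.94), Spp1 (2.29, 1.04 to 3.94, from 5 TNF- UMIs) and Lpl (1.05, 0.80 to 1.31, and 0.087 without the 5000-gene limit, where it was no longer called). Pparg was called lower (-1.57, -2.02 to -1.12), where 8.60% were. After thinning, 0.831% of TNF+ C1q macrophages had a Spp1 UMI, which is below the 2.16% of TNF+ lymphocytes. Over all UMIs, however, they had 27.6 CPM (23.3 to 32.5), above the 18.1 CPM of those lymphocytes. Before thinning, 18.2% of these C1q macrophages had a Spp1 UMI, and the highest cell had 22. The thinned share can miss UMIs held by few cells, so it does not show that this Spp1 is background. How much of it is background was not tested. In alveolar macrophages Trem2 (1.15), Spp1 (1.29) and Apoe (1.38) were called higher, where 4.57% of 8823 genes were, and none lower, where 5.84% were. Once the UMIs per lymphocyte were subtracted, no Apoe was left in the TNF+ alveolar macrophages. With the floor of 3 UMIs in place of that 0, the Apoe ratio was -3.69, which rests on the floor and not on a count. Pparg (-0.00) and Abca1 (0.03) had intervals that include 0.

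Lung classical monocytes had 5 members called higher, where 6.41% of 10798 genes were, and none lower, where 8.60% were. The largest was Abca1 with 8.25 CPM (4.62 to 13.6) against 73.5 CPM, a log2 ratio of 3.16 (2.42 to 4.00), and the others were Cd9 (1.95), Spp1 (1.78), Fabp5 (1.01) and Gpnmb, at least 9.25-fold with no TNF- UMI. Spp1 rests on 5 TNF- UMIs, and its 9.47 CPM in TNF+ classical monocytes was below the 18.1 CPM of TNF+ lymphocytes. Gpnmb had a UMI in 7.03% of the TNF+ classical monocytes. For Abca1 the thinned shares were 0.833% and 7.05%, with 2.83% and 2.03% of lymphocytes. In nonclassical monocytes Spp1 (3.13), Lpl (1.61) and Gpnmb (at least 3.47-fold) were called higher, where 5.50% of 13041 genes were, and Apoe lower (-1.09), where 8.35% were. Spp1, Gpnmb and Trem2 in TNF+ nonclassical monocytes had 2.03%, 0.296% and 1.33% of thinned cells with a UMI, near the lymphocyte shares of 2.16%, 0.370% and 0.863%.

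The limit of 5000 detected genes removed different shares of the lung cell types, the highest being that of alveolar macrophages. Without it, alveolar macrophages numbered 439 in TNF- and 632 in TNF+ cells, of which 76.8% and 89.9% lay over the limit. The share was 51.5% and 48.4% for lung dendritic cells, 48.2% and 58.4% for epithelium, and 36.0% and 20.3% for all macrophages and monocytes. Over whole libraries it was 15.6% and 17.2% in lung and 6.34% and 9.89% in synovium. In the TNF- lung 395 alveolar macrophages came from a cluster that held 17 TNF+ cells, and in the TNF+ lung 573 from a cluster that held 14 TNF- cells, so different clusters make up most of the class in each library. A further cluster of 7 TNF- and 244 TNF+ cells, led by H2-M2, Mmp12 and 8430430B14Rik, appeared only without the limit, and 82.8% of its TNF+ cells were over it.

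This TNF+ lung cluster carried the highest levels of several members among the lung macrophage clusters. It had Trem2 at 450 CPM, Gpnmb at 882 CPM, Fabp5 at 2007 CPM and Spp1 at 1474 CPM. The TNF+ C1q macrophages of the same clustering had 183, 152, 193 and 32.1 CPM, and TNF+ alveolar macrophages had 92.6, 61.7, 1182 and 1265 CPM. Its Lpl (1331 CPM) lay between that of alveolar (2499 CPM) and C1q macrophages (312 CPM), and its Apoe (3185 CPM) was below that of C1q macrophages (21410 CPM). With 1 library holding nearly all its cells, it cannot be told apart from a feature of that library.

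Without the limit the lung count of macrophages and monocytes turned. Of the members 5 were called higher in TNF+, where 6.73% of 16544 genes were, and 1 lower, where 14.3% were. Trem2 went from -0.06 to 1.27, Spp1 from -0.45 to 1.13, Fabp5 from 0.46 to 1.43 and Apoe from 0.41 to 1.72, while Gpnmb was at 1.38 and Abcg1 at -1.61. In alveolar macrophages 4 members were called higher (Trem2, Spp1, Fabp5, and Apoe at 1.48), where 4.33% of 13795 genes were, and none lower, where 11.4% were. Spp1 had 364 and 1265 CPM, and Fabp5 309 and 1182 CPM, so that Fabp5 joined the members called in alveolar macrophages (0.60 with the limit and 1.94 without). Abcg1 stood at -0.69 and Lpl at 0.27. In lung classical monocytes Apoe went from 0.49 to 1.46. Other-lineage markers in the alveolar macrophages over the limit were no higher for endothelium (749 CPM over and 755 at or under the limit in TNF-, 369 and 463 in TNF+), while the T cell markers were higher (49.1 and 15 CPM, 64.2 and 19.1 CPM). Summed epithelial markers were at 886 CPM over and 985 CPM at or under the limit in TNF- cells and 472 and 618 CPM in TNF+ cells, fibroblast markers at 181 and 184 CPM and 184 and 159 CPM, and B cell markers at 307 and 197 CPM and 708 and 873 CPM. Their part in the result was not tested.

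**Figure D5:**
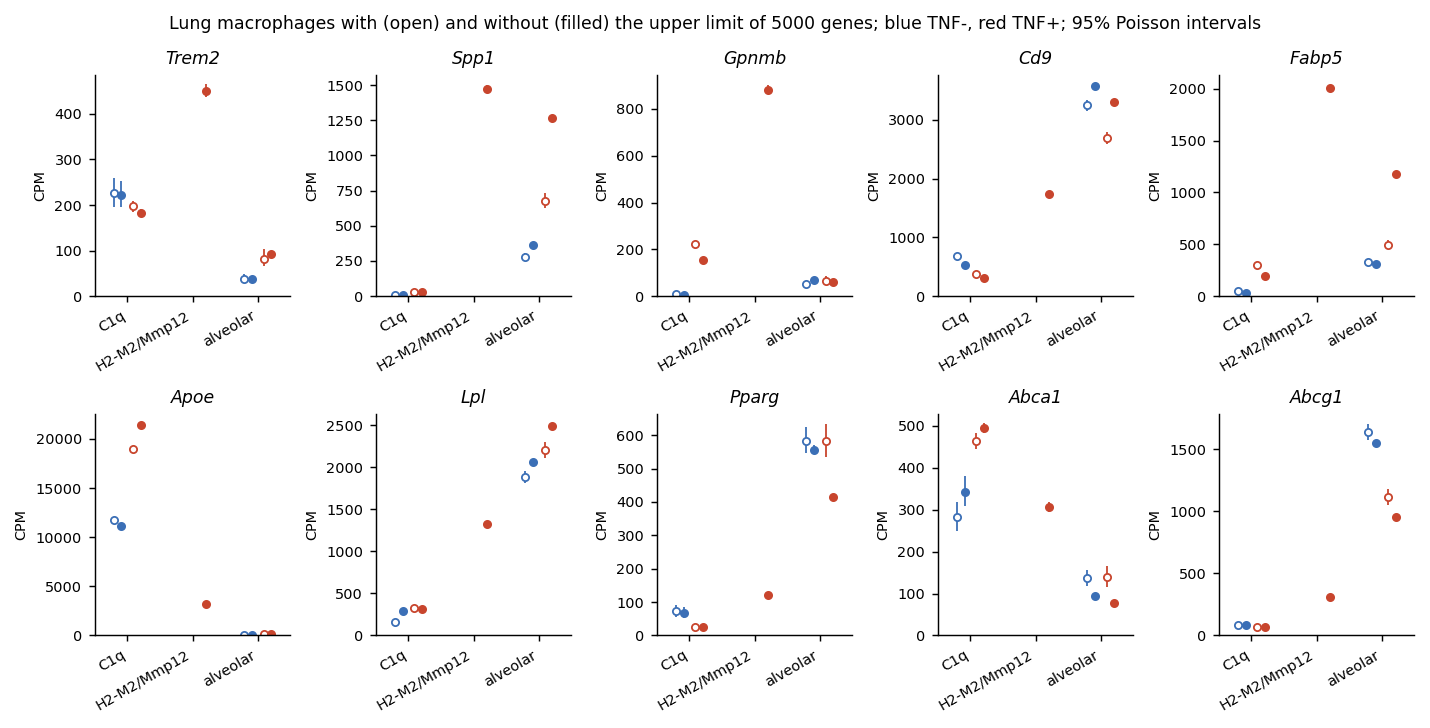
Points give the CPM (y axis, from 0, a separate scale for each gene) in lung C1q, H2-M2/Mmp12 and alveolar macrophages (x axis) of the TNF- (blue) and TNF+ (red) libraries, with the 5000-gene limit (open) and without it (filled), and bars for exact Poisson 95% intervals. The filled TNF+ alveolar points lie above the open ones for Spp1 (1265 and 677 CPM) and Fabp5 (1182 and 498 CPM), and the H2-M2/Mmp12 cluster is highest for Trem2, Gpnmb and Fabp5.

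Other genes of lipid handling were read from 12 lists with 127 genes outside the members. In synovial macrophages and monocytes 13 of the 111 genes tested were higher in TNF+ and 25 lower, beside 9.21% and 19.5% of all genes, and the median log2 ratio was -0.22 against -0.21 for all genes. In the lung 5 of 121 were higher and 20 lower, beside 4.87% and 14.2% of all genes, with a median of -0.33 against -0.12, and without the 5000-gene limit the lung counts were 10 and 9 of 122. With median-of-ratios scaling the counts became 17 and 19 for synovium and 7 and 12 for lung, and the share of all genes was not counted with that scaling. The members' own median was 1.62 in the synovium and -0.26 in the lung.

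The synovial lists are given by role, beside 9.21% of all genes higher and 19.5% lower. The lists are short, several counts are near these shares, and a difference between lists was not tested. The cells summed also differed in subtype, as the Cxcl3 cluster gave 720 of 1111 TNF+ and 9 of 222 TNF- cells. None of the 8 signalling partners of TREM2 was called in either tissue. Of 15 lysosomal genes 5 were higher in TNF+ synovial macrophages and monocytes, with Lgals3, a lectin that binds damaged lysosomes, at 1222 and 5295 CPM and the protease Ctsl at 134 and 635 CPM. Of 13 cholesterol synthesis genes 6 were lower and none higher, among them Idi1 (-1.92) and Cyp51 (-1.91). Of 11 droplet genes 1 was higher and 3 were lower, and of 12 fatty acid synthesis and activation genes 1 was higher and 2 were lower. Hilpda, an inhibitor of lipolysis at the droplet, had 12.9 and 207 CPM, and G0s2, another lipolysis inhibitor, 30.1 and 1.19 CPM.

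The remaining synovial lists gave 4 of 6 apolipoproteins and lipid transfer genes lower, 3 of 12 targets of LXR and PPAR lower, 2 of 7 osteopontin receptors lower, 1 of 3 LPL helpers lower and 2 of 3 other fatty acid carriers higher, with 2 of 9 uptake receptors and 2 of 12 regulators called in each direction. In the lung no list had more than 1 gene higher, where 4.87% of all genes were. The most called lower were 4 of 13 droplet genes and 3 of 14 LXR and PPAR targets, where 14.2% of all genes were. Among synovial uptake receptors Lrp8 was at 2.45 and 14.8 CPM and Scarb1, the high-density lipoprotein receptor, at 67.1 and 17.0 CPM, and of the osteopontin receptors Itga4 was at 401 and 106 CPM. Apoc2, the activator of LPL, was lower in synovium (217 and 93.0 CPM) and higher in lung (196 and 393 CPM). In the lung lineage Fabp1 was at 84.5 and 11.9 CPM and the droplet gene Cidec at 75.8 and 3.61 CPM. Both are among the leading genes of the alveolar cluster, which made up less of the TNF+ lineage, and the part of this in their values was not tested. Within C1q macrophages alone 19 of 102 list genes were higher and 14 lower in synovium, and 10 of 108 were higher and 10 lower in lung. All genes tested in these cells were higher in 10.5% and lower in 17.9% of cases in synovium, and in 7.45% and 8.60% in lung.

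The genes whose levels followed each member most closely were sought over 48 units, each a cell type or macrophage cluster in 1 library, among 13433 genes. These units share libraries and depth, and the correlations are a description. Trem2 was most like Msr1 (Pearson r = 0.889), Ms4a7 (0.877) and Ms4a6d (0.867), and Abcg1 most like Actr2 (0.837). Spp1 was followed by Cxcl3 (0.776), Atp6v0d2 (0.686) and Ctsk (0.677), and Gpnmb by Ctsk (0.767). For Lpl the nearest was Fcgrt (0.751), for Apoe Fam20c (0.762), for Cd9 Hist1h2bc (0.735), for Pparg Nabp1 (0.724), and for Fabp5 and Abca1 Shtn1 and Lhfpl2 (0.695 each). Between members r ran from -0.11 for Abcg1 and Apoe to 0.59 for Apoe and Trem2, with 0.56 for Spp1 and Trem2.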

How the data were processed

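The authors deposited raw UMI counts per gene and cell, made with Cell Ranger 7.0.1 (mouse reference GRCm38, introns counted by default, per the study's methods and the submitters' processing notes). The human transgene is not in that reference. Here, each library was filtered to 200 to 5000 genes and at most 20% mitochondrial UMIs per cell. The libraries of a tissue were clustered together without the list genes (2000 variable genes, 30 components, 20 neighbours, Leiden resolution 0.8, leidenalg 0.10.2). Harmony, which the study used, was not used here. Doublets were not removed beyond the gene limit. A pair of libraries shared 0.07% to 0.30% of barcodes.

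Clusters were named by at least 5 of a type's markers that were 2-fold above other cells and present in 10% of cells, and a subtype by 60% of its list. These limits were set after the data were seen. The members, lists and markers were chosen with earlier results of these data known. UMIs were summed per cell type and library as CPM with exact Poisson intervals, shares with Clopper-Pearson intervals and ratios with conditional binomial intervals, all at 95% and checked on simulated data. They cover neither mice nor library preparation. Alternatives covered filters, doublet removal, clustering, free RNA, scaling, weighting and thresholds. All 10 members are named, and of each wider list the 2 called genes with the largest change and at least 100 UMIs.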

Additional observations from a re-analysis of the deposited data

Results flagged for a closer look

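Several log2 ratios of TNF+ over TNF- pointed in opposite directions in synovium and lung. With 1 library per group the difference between tissues was not tested. Cd9, the tetraspanin, did so in 4 groupings of cells, at 0.904 in synovium and -0.886 in lung for the whole tissue, 1.73 and -1.33 for macrophages and monocytes, 0.853 and -0.838 in C1q macrophages and 0.865 and -0.359 in nonclassical monocytes. Lpl was at -1.40 in synovium and 1.05 in lung C1q macrophages, and at -2.52 and 1.61 in nonclassical monocytes. Lymphocyte Lpl had the same direction in each tissue, at 21.6 CPM in TNF- and no UMI in TNF+ synovium, and 3.66 and 17.9 CPM in lung. The part of free RNA in these Lpl ratios was not tested. Abcg1 was at 1.73 and -0.388 in the whole tissues. Among macrophages and monocytes Spp1 was at 5.84 and -0.451 and Apoe at -0.223 and 0.407, and Pparg in nonclassical monocytes was at 0.282 and -0.670. Without the 5000-gene limit, lung Spp1 (1.13) and synovial Apoe (0.0084) in macrophages and monocytes were no longer opposite. Lung Lpl in C1q macrophages was then at 0.087 with an interval that includes 0, and Cd9 in the whole lung at -0.047.

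A synovial cluster without a name, seen when the 5000-gene limit was left out, was not used in the comparisons. It was led by Mmp9, Acp5 and histone genes and held 33 TNF- and 109 TNF+ cells. Trem2 stood at 186 CPM in its TNF+ and 1.83 CPM in its TNF- cells, and Spp1 at 543 and 32.0 CPM.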

How the results depend on the processing

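No paired analysis was possible because each group has 1 library. The members called higher or lower were recounted under each alternative. Shares over all genes were counted only at the main settings and without the upper limit on genes. Counts under the other alternatives are therefore not read as a trait of the members or lists. With UMIs per lymphocyte subtracted, 5 members were counted over 50% in TNF- synovial macrophages (1 otherwise). For Pparg, Fabp5 and Abcg1 that share has no meaning, as more was subtracted than the library held. In the wider lists 38 genes were then higher in synovium, and 8 were higher and 46 lower in lung. The same subtraction left 1 member lower in synovial C1q macrophages and 1 in alveolar macrophages. Pparg in the former (1.90) and Apoe in the latter (-3.69) changed sign. In each, the count of 1 library fell to 0 and was set to the floor of 3 UMIs, so neither is a measured reversal. At 1.5-fold the wider lists had 20 genes higher and 43 lower in synovium and 11 and 35 in lung, 8 members were higher in synovial C1q macrophages, 2 lower in lung C1q macrophages and 1 lower in the whole lung. At 4-fold, 3 members were higher and 0 lower in the whole synovium and in its C1q macrophages, 1 was lower in synovial macrophages and monocytes, 1 was higher in the whole lung, 0 were higher and 1 lower in lung macrophages and monocytes, and 0 were lower in lung C1q or higher in alveolar macrophages. The wider lists then had 7 and 7 in synovium and 1 and 8 in lung.

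Lung macrophages and monocytes moved most with the cells used. Without any filter on cells, and likewise without the upper limit on genes (chosen after seeing the data), 5 members were higher and 1 lower, and the wider lists had 10 and 9. With each cell weighted equally 3 members were higher and 1 lower and 10 wider-list genes lower, with median-of-ratios scaling 12 were lower, and with the stricter filter 2 members were lower in lung C1q macrophages. Synovial C1q macrophages gave no value under the stricter filter, at resolution 0.4 or with each library clustered by itself. Of 39 member ratios past 2-fold, 37 had the same sign under every alternative run. This describes the sign and not the call, and the alternatives reuse cells. Lpl in lung C1q macrophages ranged from 0.0732 to 1.12 and Pparg in the whole lung from 0.604 to 1.65. Of ratios within 2-fold, lung macrophage and monocyte Trem2 kept its sign in 6 of 11 alternatives and Spp1 in 8 of 11. Lpl in the whole lung kept it in 3 of 7.

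With 1 library per group, depth sets the counting intervals and nothing here measures the variation between mice. Gpnmb and Spp1 in TNF- C1q macrophages and monocytes rest on 0 to 30 UMIs. Clusters held almost wholly by the TNF+ library cannot be told apart from features of that library.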

Other observations

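Synovial Schwann cells with Grik2 and Cdh19 had Apoe at 3363 CPM in the TNF- library. Among lung cells outside the macrophages, mast cells or basophils had Pparg at 201 CPM (160 to 248) in TNF- and 256 CPM (225 to 289) in TNF+ cells, with overlapping intervals.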
